A study of Mus musculus with 6 samples.

Results

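Doxorubicin (Dox) was given to mice with or without ginsenoside Rh2 at 20 mg/kg, and the RNA of their hearts was compared here as the Rh2-20 mg/kg + Dox library against the Dox library, 2 of the 6 samples of the series. Dox is an anthracycline used against breast cancer whose use is limited by damage to the heart, and Rh2 is a steroid-like saponin from ginseng. The hearts of both libraries were from BALB/c nude females (CAnN.Cg-Foxn1nu/Crl, labelled 6 weeks old) that carried subcutaneous tumours of MDA-MB-231, a human breast cancer cell line. Dox was injected every other day at 2 mg/kg to a cumulative 22 mg/kg, and Rh2 daily for the 3 weeks of treatment. Control mice were given neither drug, and the Rh2-20 mg/kg and Rh2-30 mg/kg mice received Rh2 alone. Rh2-30 mg/kg + Dox mice received the higher Rh2 dose with the same Dox. All groups thus shared the nude genotype, which leaves mice without a thymus and with few mature T cells, and the tumour. Each library pooled the hearts of 5 mice, so that each condition is 1 value and the spread between mice is not seen. For this reason no p-value is given, and the ratios describe these 2 libraries.

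The libraries held 89742232 counted reads with Dox plus Rh2 at 20 mg/kg and 86164411 with Dox alone, and the other 4 lay between 86755312 and 90621002. Of 45777 genes in the table, 18328 averaged 10 or more counts across all libraries and were compared. The log2 ratio given for a gene is that of its counts in Rh2-20 mg/kg + Dox over Dox after scaling by the trimmed mean of M values (TMM), with a prior count of 0.5, so that a value of -1 is a 2-fold lower level with Rh2. Brackets after a ratio hold its 95% interval from counting error alone. Taking in the spread among all 6 libraries, treatment effects included, widened the interval of a well-counted gene to 0.67 on either side. Heart muscle genes defined both libraries: Myh6, the main myosin heavy chain of the adult mouse heart, held 1133554 counts with Rh2 and 1146783 without. Tnnt2, cardiac troponin T, held 137012 and 141826. Of markers of other tissues, Krt5 of epidermis and Sftpc of lung were at 0 in both, and Alb of liver held 10 and 0 counts. Other markers of these tissues held reads in both: Krt10 of epidermis 51 and 48, Scgb1a1 of lung 51 and 98, and Ahsg of liver 1587 and 1808. Msln of mesothelium held 337 and 342.

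Few genes differed by 2-fold between the libraries. At least 2-fold higher with Rh2 were 564 genes (3.08% of those compared), and at least 2-fold lower were 630 (3.44%), together 1194 (6.51%). The median log2 ratio was 0.00 and 85.7% of genes lay within 1.5-fold. With the interval that takes in the spread among libraries clear of 0, 424 genes were higher (2.31%) and 506 were lower (2.76%), together 930 (5.07%). Most of the 2-fold differences were in genes with few reads: among the 8741 genes that averaged 1000 or more counts, 14 were higher and 52 were lower. Of the 15 pairs that the 6 libraries form, only Control and Rh2-20 mg/kg had fewer genes 2-fold apart (1127), and the largest number was 2665. The plot of log2 ratio against mean count shows where the well-counted differences lay. Of the 52 well-counted lower genes, 22 belonged to the list of interferon gamma GTPases and MHC class I genes.

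**Figure D1:**
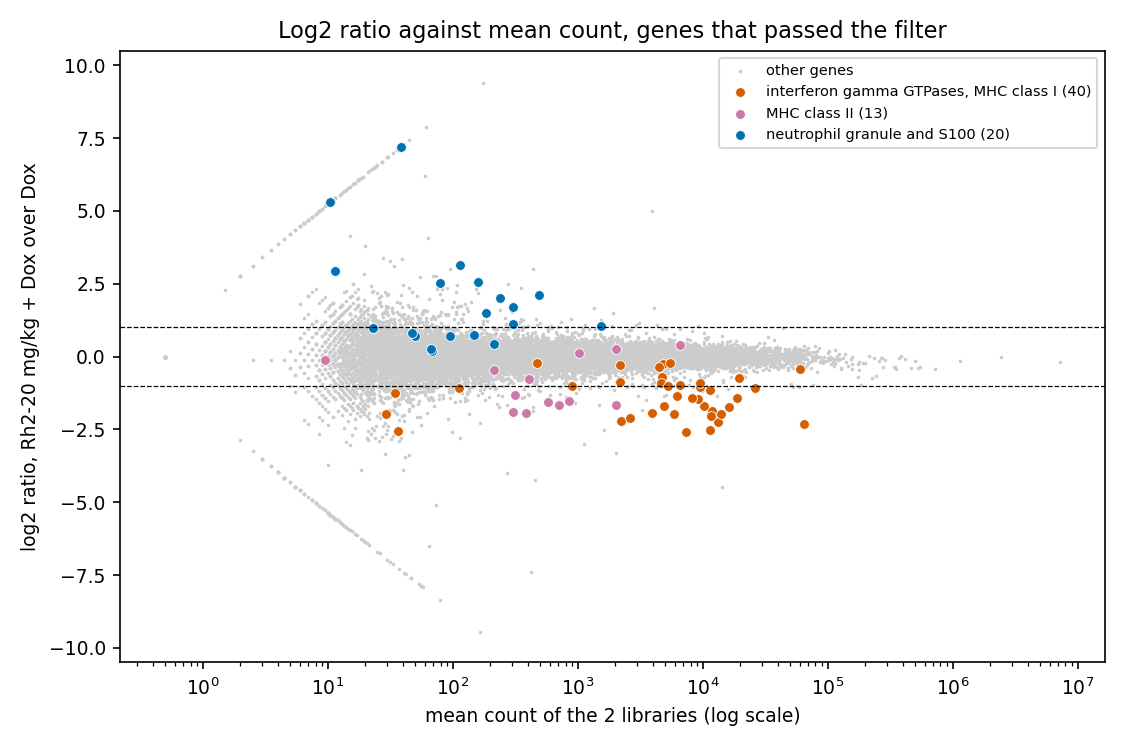
Log2 ratio of Rh2-20 mg/kg + Dox over Dox (vertical axis) against the mean count of the 2 libraries (horizontal axis, log scale) for the 18328 genes compared. Orange points are the 40 genes of the interferon gamma GTPase and MHC class I list, pink the 13 of MHC class II, blue the 20 neutrophil genes and grey the rest. Dashed lines mark 2-fold. All 40 orange points lie below 0 and all 20 blue points above it. The slanted lines of grey points are genes with a count of 0 in either library.

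Interferon gamma acts through its receptor and the kinases JAK1 and JAK2, and switches on genes through GAS elements in their DNA. IRF1 and related factors are raised in turn and bind ISRE elements. Among the targets are families of GTPases that attack vacuoles with pathogens (the IRG and GBP families), the proteasome subunits, transporters and heavy chains of MHC class I antigen presentation, and CIITA, the switch for MHC class II. In heart these genes are used by muscle, endothelium and leukocytes alike.

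Promoters of 4 genes that were lower with Rh2 are given here because they hold letters like those of both elements. They are the windows of Igtp (chr11:58199306-58199605, plus strand), Irgm2 (chr11:58214727-58215026, plus strand), Tgtp1 (chr11:48992197-48992496, minus strand) and Gbp7 (chr3:142530086-142530385, plus strand) from RefSeq on GRCm38.p6. Each runs from 250 bases before to 50 bases after the annotated start, 5′ to 3′ on the gene's strand. Capitals mark matches on either strand to an ISRE, searched as GAAANNGAAA, or to a GAS element, searched as TTCNNNGAA, and the 2 patterns may overlap. The 4 are genes of the list with both elements, left out being Tgtp2, a near copy of Tgtp1, and Gbp5.
Igtp: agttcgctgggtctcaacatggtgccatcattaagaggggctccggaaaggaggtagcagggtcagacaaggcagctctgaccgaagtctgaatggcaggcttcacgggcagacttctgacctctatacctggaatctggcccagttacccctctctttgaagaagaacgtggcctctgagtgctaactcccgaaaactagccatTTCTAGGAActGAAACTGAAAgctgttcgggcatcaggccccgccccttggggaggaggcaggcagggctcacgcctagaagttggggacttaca
Irgm2: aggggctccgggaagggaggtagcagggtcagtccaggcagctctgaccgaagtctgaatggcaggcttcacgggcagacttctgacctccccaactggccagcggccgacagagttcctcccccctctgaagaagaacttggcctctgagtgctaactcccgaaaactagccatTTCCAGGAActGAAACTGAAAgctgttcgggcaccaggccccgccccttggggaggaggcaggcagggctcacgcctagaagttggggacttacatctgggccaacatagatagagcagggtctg
Tgtp1: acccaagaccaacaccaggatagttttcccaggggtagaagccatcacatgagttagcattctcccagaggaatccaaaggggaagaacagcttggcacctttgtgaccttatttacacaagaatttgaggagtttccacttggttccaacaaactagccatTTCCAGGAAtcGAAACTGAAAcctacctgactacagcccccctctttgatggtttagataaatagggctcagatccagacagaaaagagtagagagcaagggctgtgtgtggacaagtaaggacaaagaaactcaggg
Gbp7: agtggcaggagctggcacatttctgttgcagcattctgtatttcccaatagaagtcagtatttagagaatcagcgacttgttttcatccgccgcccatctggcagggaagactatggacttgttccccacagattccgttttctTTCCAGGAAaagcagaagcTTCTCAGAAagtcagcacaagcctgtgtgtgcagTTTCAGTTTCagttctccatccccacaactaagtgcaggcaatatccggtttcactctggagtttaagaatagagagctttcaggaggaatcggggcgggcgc
In Igtp, Irgm2 and Tgtp1 the GAS match began 45, 75 and 88 bases before the start, and 2 bases lay between its end and the ISRE match. In Gbp7 a GAS match lay 106 bases before the start and the ISRE match 53 bases before it. Of the 35 windows found for 30 of the 40 genes in this list, 15 held an ISRE match (42.9%) and 9 a GAS match (25.7%). Among all 32851 windows of this length the shares were 3.44% and 8.30%. Among windows of all genes at least 2-fold lower they were 6.91% and 9.76%. In the type I interferon list, with 3 of 57 genes at least 2-fold lower, they were 48.1% and 11.5%. Cd274, H2-K1 and Tap1 held neither pattern in their windows. A match is a run of letters and not a measured binding site.

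The interferon gamma GTPases were lower with Rh2. Igtp, a GTPase of the IRG family (chromosome 11, 58199556 to 58207592), held 1449 counts in Control, 1473 and 1875 with Rh2 alone at 20 and 30 mg/kg, 12340 with Dox alone, and 2246 and 1507 with Dox plus Rh2 at 20 and 30 mg/kg. The log2 ratio was -2.58 [-2.65, -2.52], or 5.99-fold lower with Rh2. Dox alone stood high, and the Rh2-20 mg/kg + Dox library lay near the libraries without Dox. Iigp1, of the same family, held 19125 counts in Dox, 3614 with added Rh2 and 3337 to 4577 in the other 4, a log2 ratio of -2.53. Tgtp1 and Tgtp2, close copies whose reads the counting could exchange, had log2 ratios of -2.04 and -1.98. Irgm2 and Irgm1, which regulate the other IRG proteins, had -1.96 and -1.37.

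The guanylate binding proteins were also highest in Dox. Gbp4 (chromosome 5, 105115767 to 105139586) was the most abundant by reads, with 106283 counts in Dox, 23278 with added Rh2 and 18446 to 31011 in the other 4. Its log2 ratio was -2.32 [-2.34, -2.30], 4.98-fold lower. Those of Gbp8, Gbp10, Gbp6, Gbp7, Gbp3, Gbp5 and Gbp9 ran from -2.12 to -1.07, and Gbp2 had -0.97. By position, all 7 genes of this list on chromosome 5 were at least 2-fold lower, among them 5 Gbp genes, as were 3 of the 4 Gbp genes on chromosome 3 and 5 of the 6 genes on chromosome 11. So were 7 of 12 on chromosome 17, 2 of 4 on chromosome 8 and the single genes on chromosomes 16, 18 and 19. None on chromosomes 2, 12 and 14 was.

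MHC class I genes were lower as well, most of them by less. Nlrc5, the transactivator of MHC class I genes (chromosome 8, 94434335 to 94527272), held 21614 counts in Dox, 4973 with added Rh2 and 3528 to 5962 in the others, a log2 ratio of -2.24 [-2.29, -2.20]. Tap1, part of the peptide transporter, held 6111 and 1728 counts and had a ratio of -1.95. The class I heavy chain H2-K1 held 15344 and 7501 (-1.16), and its partner B2m held 23624 and 15456 (-0.74). Differences were smaller still for the heavy chain H2-D1 (-0.43) and the peptide loading factor Tapbp (-0.35). H2-Q5, a nonclassical class I gene with close copies nearby, held 3692 and 793 counts (-2.34). Cd274, which encodes the checkpoint ligand PD-L1 (chromosome 19, 29362107 to 29388095), held 3598 counts in Dox and 852 with added Rh2, with 646 to 933 in the other 4, so that its log2 ratio was -2.20 [-2.31, -2.10].

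Of the 40 genes in the list of interferon gamma GTPases and MHC class I genes, all of which passed the filter, 27 were at least 2-fold lower with Rh2 and none was 2-fold higher, against 3.44% and 3.08% of all genes. Its median log2 ratio was -1.39, against 0.00 over all genes. Dox was the highest of the 6 libraries in 37 of the 40, against 18.8% of all genes. Summed over the list, counts were 570785 in Dox, 242993 with added Rh2 and 206077 to 238297 in the other 4. Without Dox the same list differed little: the median log2 ratio of Rh2-20 mg/kg over Control, a comparison that shares no library with this one, was -0.25. The difference between the effects with and without Dox was not tested. Ifng itself, the gene of interferon gamma, was at 0 counts in all 6 libraries.

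**Figure D2:**
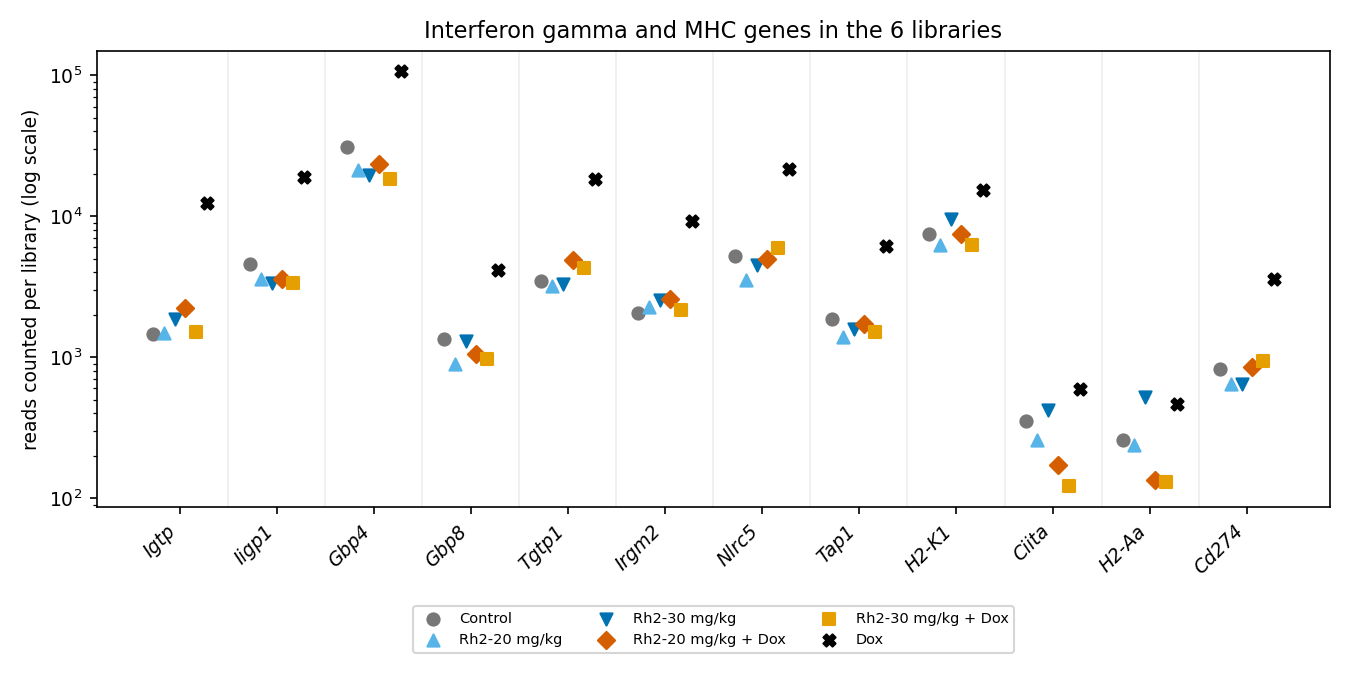
Reads counted (vertical axis, log scale) for 12 interferon gamma and MHC genes, with 1 point for each of the 6 libraries. Black crosses are Dox and orange diamonds Rh2-20 mg/kg + Dox. Dox is above all other libraries in each gene except H2-Aa, where Rh2-30 mg/kg held more counts, and the Rh2-20 mg/kg + Dox points lie in or near the range of the remaining libraries, at 2246 against 12340 for Igtp.

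MHC class II genes, which present antigen on macrophages, dendritic cells and B cells, had another order of libraries. Ciita held 354 counts in Control, 259 and 420 with Rh2 alone at 20 and 30 mg/kg, 599 with Dox alone, and 171 and 121 with Dox plus Rh2 at 20 and 30 mg/kg, a log2 ratio of -1.93 [-2.19, -1.69]. H2-Aa, a class II chain, held 467 in Dox and 135 with added Rh2, against 239 to 526 in the 3 libraries without Dox. Cd74, the invariant chain, held 3021 and 1038. In these genes both libraries with Rh2 and Dox were lower than the libraries without Dox, and not only lower than Dox. Of 13 class II genes that passed the filter (1 did not), 7 were at least 2-fold lower and none was higher, against 3.44% and 3.08% of all genes, and the median log2 ratio was -1.33. Lgmn and Ctss, proteases of the same route that macrophages use widely, had ratios of 0.39 and 0.25.

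Genes of type I interferon, the antiviral response, differed less. Of 57, all of which passed the filter, 3 were at least 2-fold lower and none was higher, against 3.44% and 3.08% of all genes. Among the 3 were the nucleic acid sensor Zbp1 (670 counts in Dox and 320 with added Rh2, log2 ratio -1.19) and the antiviral enzyme Rsad2 (5605 and 2898, -1.08). The median was -0.34, and Rh2-20 mg/kg over Control gave the same median, -0.34. Ifi205, of the family of DNA sensors on chromosome 1, went the other way with 1674 counts in Dox and 3439 with added Rh2 (0.91).

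Cell markers were set beside these results. Bulk RNA cannot tell fewer cells of a type from less RNA per cell, here and for every list that follows. Of the T, B and NK cell list, 33 of 50 genes passed the filter, 10 were at least 2-fold lower and 1 was higher, against 3.44% and 3.08% of all genes, most of them at under 100 counts. Genes with few reads reached 2-fold more often. With a mean of 100 or more counts, 0.96% of genes were lower and 0.52% were higher. The shares over all genes are thus a low reference for this list. Cd3e of the T cell receptor held 220 counts in Dox and 97 with added Rh2, while Cd3d was at 0 in all 6 libraries. Il2rb, a receptor chain of NK and T cells, held 105 and 35, and the cytotoxic genes Nkg7 (30 and 8) and Gzma (66 and 26) also held more in Dox. Other members went the other way, 9 of the 33 being above 0. Among these were Ncr1 of NK cells (28 and 41) and the B cell genes Cd79a (30 and 54) and Ms4a1 (9 and 25). Summed over the list, counts were 3046 in Dox, 2603 with added Rh2 and 2097 to 7373 in the other 4. The part of these cells in the interferon gamma result was not tested. Macrophage and monocyte genes leaned the opposite way, with a median of 0.29. Of 46 genes, 35 were above 0 and 11 were below it, down to -0.81. Only 1 of 46 was at least 2-fold higher (Plac8, 65 and 173 counts), against 3.08% of all genes. Mrc1, the mannose receptor of resident macrophages, held 10433 in Dox and 18365 with Rh2 (0.69), and Cd163, the haemoglobin scavenger receptor, held 4091 and 7612 (0.77).

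Neutrophil genes were higher with Rh2. Neutrophils are short-lived granulocytes that carry S100 proteins in their cytoplasm and proteases in their granules, and enter the heart after injury. S100a9, a subunit of calprotectin (chromosome 3, 90692630 to 90695721), held 204 counts in Control, 622 and 287 with Rh2 alone at 20 and 30 mg/kg, 173 with Dox alone, and 810 and 411 with Dox plus Rh2 at 20 and 30 mg/kg, a log2 ratio of 2.1 [1.86, 2.35]. Its partner S100a8 held 387 counts with Rh2 and 88 in Dox (2.01 [1.67, 2.36]). The Rh2-20 mg/kg + Dox library was the highest of the 6 for both, and Rh2-20 mg/kg without Dox the next.

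Granule and receptor genes were also highest in the Rh2-20 mg/kg + Dox library. Mmp8, the neutrophil collagenase, held 274 counts with Rh2 and 42 in Dox (2.57 [2.11, 3.09]). Stfa2l1, a stefin of granulocytes, held 207 and 21 (3.15 [2.53, 3.90]). Il1r2, the decoy receptor for interleukin 1, held 136 and 21 (2.54). Lcn2, an iron-sequestering granule protein that many stressed cells also make, held 470 and 131 (1.71). The receptors Csf3r, for the growth factor of granulocytes, and Cxcr2, for chemokines, had ratios of 1.04 and 1.11. Stfa2 held 76 counts with Rh2 and none in Dox, at least 23.2-fold higher when Dox is set at 3 counts.

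Of the 30 genes in the neutrophil list, 29 were in the table and 20 passed the filter, which a gene could do through the library where it was high. Of the 20, 12 were at least 2-fold higher and none was lower, against 3.08% and 3.44% of all genes. The median log2 ratio was 1.3, and the Rh2-20 mg/kg + Dox library was the highest of the 6 in 16 of the 20, against 8.82% of all genes. Ly6g, the marker that defines mouse neutrophils, fell under the filter with 16 counts with added Rh2 and 0 in Dox. List totals were 6159 counts with Rh2 and 2248 in Dox, against 1854 to 3729 in the other 4. Without Dox the list leaned the same way, with a median of 1.11 for Rh2-20 mg/kg over Control. These genes hold few reads, and 11 of the 20 were under a mean of 100 counts. In the same comparison the red cell list had a median of -0.72 and the platelet list 0.51, and the part of blood in the neutrophil result was not tested.

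**Figure D3:**
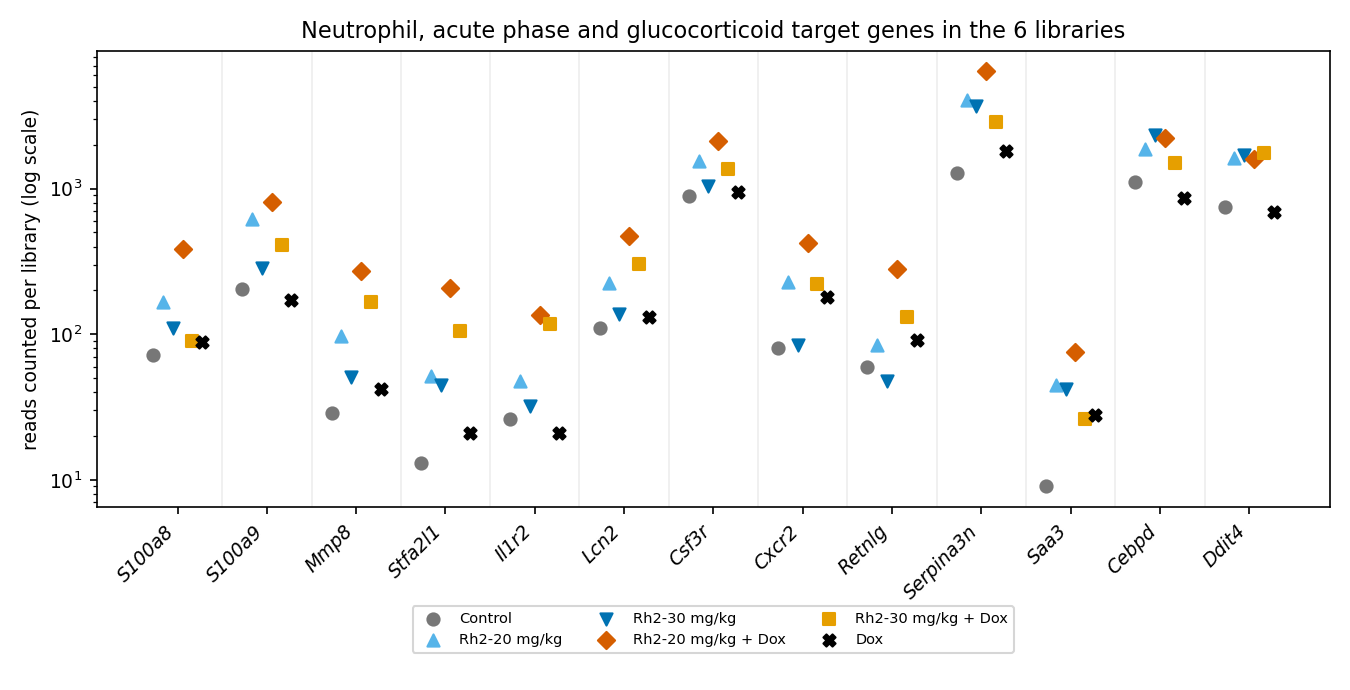
Reads counted (vertical axis, log scale) for 9 neutrophil genes and for acute phase and glucocorticoid target genes, with 1 point for each of the 6 libraries. Orange diamonds (Rh2-20 mg/kg + Dox) are at the top for every neutrophil gene shown, with 810 counts for S100a9 against 173 in Dox (black crosses), and the Dox and Control points lie near the bottom for most genes.

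Some acute phase and hormone-responsive genes were higher as well. Serpina3n, a protease inhibitor induced by injury and glucocorticoids (chromosome 12, 104406646 to 104414334), held 1276 counts in Control, 4058 and 3705 with Rh2 alone at 20 and 30 mg/kg, 1826 with Dox alone, and 6377 and 2881 with Dox plus Rh2 at 20 and 30 mg/kg, a log2 ratio of 1.68 [1.60, 1.76]. All 4 libraries with Rh2 held more than the 2 without. Serpina3g, a relative that interferon gamma induces, went the other way with 999 counts in Dox and 452 with Rh2 (-1.27). Of 33 complement and acute phase genes that passed the filter, 5 were at least 2-fold higher (Serpina3n, Lcn2, Saa3, Cfi and Orm2), only Serpina3g was 2-fold lower, against 3.08% and 3.44% of all genes, and the median was 0.31.

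The list of glucocorticoid targets and metallothioneins had 5 of 33 genes at least 2-fold higher and none lower, against 3.08% and 3.44% of all genes, and a median of 0.31. Rh2-20 mg/kg over Control gave a median of 0.32. Cebpd, a transcription factor of the acute phase, held 863 counts in Dox and 2226 with Rh2 (1.24 [1.13, 1.36]), and Dox was the lowest of the 6 libraries. Ddit4, an inhibitor of mTOR complex activity induced by stress and by glucocorticoids, held 687 in Dox and 744 in Control, against 1606 to 1767 in the 4 libraries with Rh2 (1.10 [0.97, 1.23]). Mt2, a metallothionein that binds zinc and copper, held 421 and 1048 (1.19). Fkbp5 and Tsc22d3, the usual reporters of glucocorticoid receptor activity, had ratios of 0.34 and 0.30. Cyp2e1, which fat and liver also express, had -0.99.

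**Figure D4:**
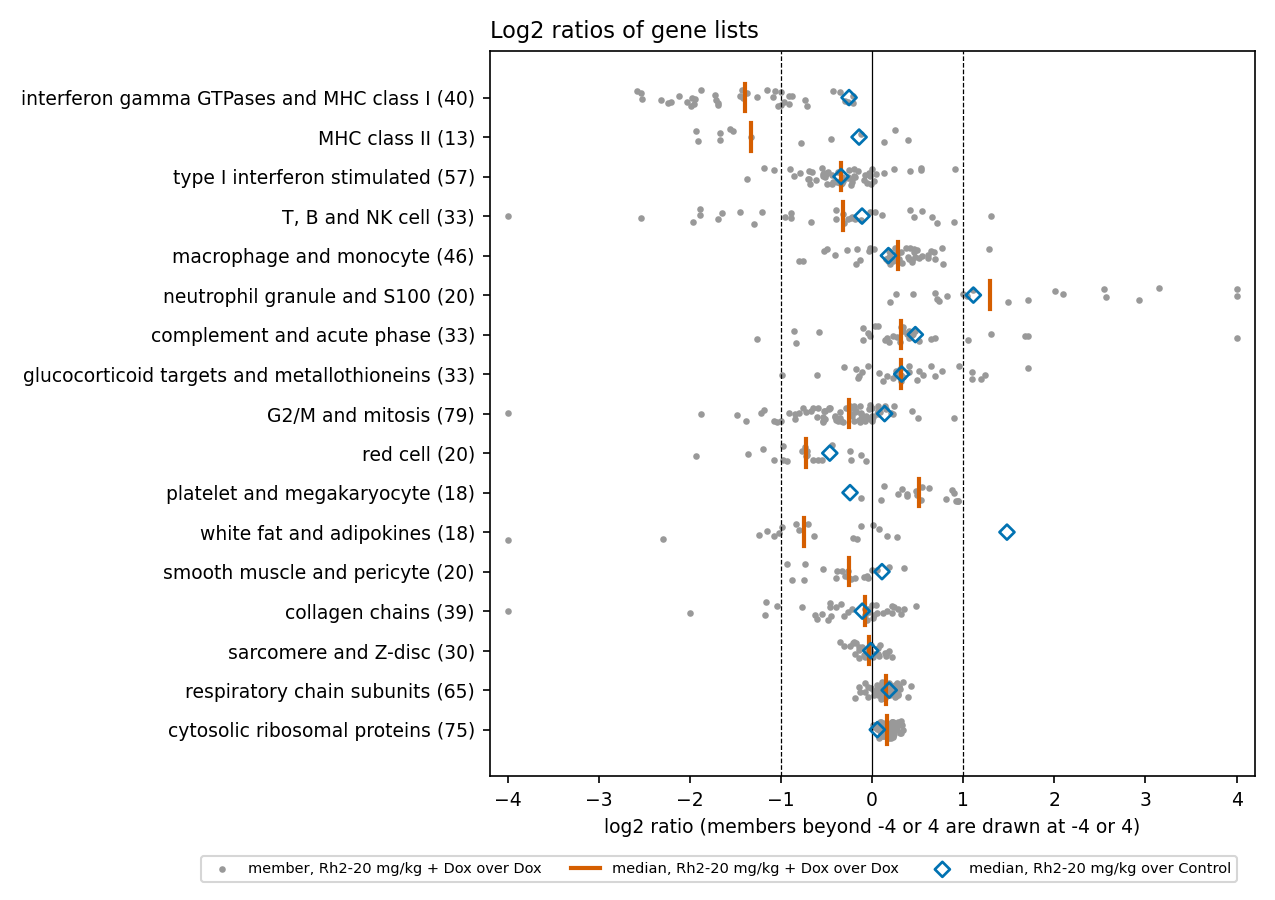
Log2 ratios (horizontal axis) of the members of 17 gene lists, with the number of genes compared in brackets. Grey points are members in Rh2-20 mg/kg + Dox over Dox, orange bars their median and blue diamonds the median of Rh2-20 mg/kg over Control. Dashed lines mark 2-fold. The bars of the interferon gamma and MHC class II lists lie at -1.39 and -1.33 with diamonds near 0, the neutrophil bar and diamond both lie above 1, and the bars of sarcomere, respiratory chain and ribosomal genes lie between -0.03 and 0.16.

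Cell division genes were slightly lower with Rh2. Of 79 G2/M and mitosis genes that passed the filter, 9 were at least 2-fold lower and none was higher, against 3.44% and 3.08% of all genes, and the median was -0.25. With a mean of 100 or more counts there were 4 lower genes, on FPKM plus 0.1 there was 1, and on FPKM plus 1 none was lower and the median was -0.06. Aurkb, the kinase that corrects spindle attachment, held 86 counts in Dox and 41 with Rh2 (-1.18 [-1.77, -0.64]), against 150 to 192 in the 3 libraries without Dox. Dlgap5, a spindle protein, held 93 and 36 (-1.48), and Bub1b, of the spindle checkpoint, held 217 and 118 (-1.0). In these genes the 3 libraries with Dox were lower than the 3 without. Other members went the other way, such as Ccna2 (cyclin A), with 151 counts in Dox and 223 with Rh2 (0.44). S phase genes had a median of 0.00, with 1 of 50 at least 2-fold lower (E2f2, 524 and 216 counts), against 3.44% of all genes.

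Damage and senescence genes went in both directions. Of 29 CDK inhibitor and senescence genes, 2 were at least 2-fold higher (Gdf15 and Hmga2) and 2 were lower (Cdkn2a and Cdkn2b), against 3.08% and 3.44% of all genes. Cdkn1a, the p53 target that encodes p21, held 368 counts in Dox and 681 with Rh2 (0.76 [0.58, 0.95]), and 230 in Control. Cdkn2a held 11 counts in Dox and 0 with Rh2, at least 4.0-fold lower when the count of 0 is set at 3, and its neighbour Cdkn2b held 29 and 11. Gdf15, a stress cytokine, held 36 and 96 (1.28). Of 37 p53 targets, 2 were at least 2-fold higher (Gdf15 and Ddit4) and none was lower, against 3.08% and 3.44% of all genes. Casp9, an initiator caspase, had a ratio of 0.08, and Parp1, a DNA repair enzyme, had 0.04. No gene of the apoptosis and necroptosis list (40 genes) was 2-fold apart. In the antioxidant list (44 genes) the lipoxygenase Alox15 (15 and 34 counts) and the cystine transporter Slc7a11 (13 and 35) were at least 2-fold higher. None was 2-fold lower, and the shares over all genes were again 3.08% and 3.44%.

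Toll-like receptors, which the study examined, were under 2-fold apart. The study reported several of them, Tlr7, Tlr8 and Tlr13 among these, as raised by Dox and reduced by Rh2 at both doses. Tlr13, Tlr8 and Tlr7, sensors of nucleic acid in the endosome, had ratios of 0.95, 0.86 and 0.74, from 371, 554 and 642 counts in Dox to 784, 1098 and 1167 with Rh2. Tlr2 had -0.08, and Tlr9 held 151 and 85 counts (-0.95). Of 26 receptor and adaptor genes none was 2-fold apart. Among cytokines, Tnf held 39 counts in Dox and 35 with Rh2, Il1b held 278 and 396 (0.38), and Il6 held 10 and 18. Il18 held 60 and 82. The chemokines Cxcl9 and Cxcl10, both interferon gamma targets that draw T cells, held 61 and 45 counts in Dox and 11 and 12 with Rh2. The chemokine Ccl2 held 393 and 255 (-0.75), and Ccr1, a receptor of neutrophils and monocytes, held 182 and 440 (1.15).

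The main fibrillar collagen genes were under 2-fold apart. Of 39 collagen genes 5 were at least 2-fold lower (Col17a1, Col4a6, Col19a1, Col25a1 and Col9a2), each with at most 180 counts in Dox, and none was higher, against 3.44% and 3.08% of all genes, and the median was -0.08. Col1a1 and Col3a1, the main fibrillar chains, had ratios of 0.24 and 0.48. Vim had -0.07, Smad2 0.05 and Smad3 0.10. Of 16 metalloproteinase genes that passed the filter, 2 were at least 2-fold higher (Mmp8, the neutrophil collagenase, and Mmp27, with 35 and 87 counts) and none was lower, against 3.08% and 3.44% of all genes. Mmp3 (stromelysin) held 696 counts in Dox and 1492 with Rh2 (0.97), Mmp2 had 0.12 and Mmp28 had -0.78. The inhibitors Timp1 and Timp4 had 0.50 and 0.62. Thbs1, a matrix protein that platelets and vessel walls make, held 5605 and 12783 (1.06).

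Smooth muscle genes were lower as a list without passing 2-fold, with a median of -0.26 over 20 genes. Tagln and Cnn1, actin-binding proteins of contractile smooth muscle, held 5083 and 589 counts in Dox and 3007 and 335 with Rh2 (-0.88 and -0.94). Acta2 had -0.23. Endothelial genes stayed close: Pecam1, Cdh5 and Kdr had 0.18, 0.21 and 0.03. Of 48 genes only Apln, the ligand apelin, was 2-fold apart (10 and 40 counts), against 6.51% of all genes.

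Heart muscle and energy genes lay close together. None of 30 sarcomere genes was 2-fold apart, with ratios from -0.35 to 0.22. The same held for 65 respiratory chain subunits (median 0.16), 45 genes of fatty acid oxidation (0.17), 44 of glucose use and the citric acid cycle (0.14) and 75 cytosolic ribosomal proteins (0.16). Rh2-20 mg/kg over Control gave medians of 0.19, 0.18, 0.17 and 0.06. Decr1, an enzyme of fatty acid oxidation, held 7786 counts in Dox and 13130 with Rh2 (0.63). Of 38 genes of calcium handling and ion channels 1 was 2-fold apart, against 6.51% of all genes. It was Sln, which is largely atrial.

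Atrial genes spanned a wide range among the 6 libraries. Myl7, the atrial myosin light chain, held 56 counts in Control, 1187 and 52896 with Rh2 alone at 20 and 30 mg/kg, 9134 with Dox alone, and 10613 and 19 with Dox plus Rh2 at 20 and 30 mg/kg. The 2 libraries compared here were thus alike (log2 ratio 0.09), as they were for Nppa, atrial natriuretic peptide (16217 counts in Dox and 16608 with Rh2). Bmp10, a growth factor of right atrial muscle (chromosome 6, 87428994 to 87434512), held 217 counts in Dox and 7644 with Rh2, 32.2-fold higher (5.01 [4.82, 5.22]). Other libraries held 0 to 534 counts of it. Sln, sarcolipin, a regulator of the calcium pump in atrial muscle, held 1828 and 4393 (1.14). Hamp, the iron hormone hepcidin, held 88 and 783 (3.02 [2.71, 3.36]), and its copy Hamp2 held 23 and 127. The part of the heart chambers sampled in these differences was not tested. Of 18 genes in the atrial list 2 were at least 2-fold higher (Bmp10 and Sln) and 1 was lower, against 3.08% and 3.44% of all genes, and the median was 0.01.

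Blood and fat markers also moved. Red cell genes were lower with Rh2, with 4 of the 20 that passed the filter at least 2-fold lower (Ermap, Slc4a1, Epb42 and Bpgm) and none higher, against 3.44% and 3.08% of all genes, and a median of -0.72. On FPKM plus 1 there was 1 such gene and on FPKM plus 0.1 there were 2. Hbb-bt, an adult beta globin, held 97559 counts in Dox, 53853 with Rh2 and 16112 to 33558 in the other 4. Slc4a1, the anion exchanger of red cells, held 4228 and 1795 (-1.36). Platelet genes were higher, with none of 18 past 2-fold and a median of 0.51. Itgb3, a platelet integrin, held 3266 in Dox and 6834 with Rh2, against 788 to 1791 in the other 4, and Ppbp, a platelet chemokine, held 1759 and 3571. For platelet genes both libraries compared here stood apart from the rest, and the part of blood in the other results was not tested.

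Most white fat genes were lower with Rh2 in the presence of Dox, with 6 of 18 at least 2-fold lower and none higher, against 3.44% and 3.08% of all genes, and a median of -0.75. Above 0 were 4 of the 18, up to 0.27. Summed over the list, counts were 281529 in Dox and 293539 with added Rh2, so that the total was not lower. On FPKM plus 1 no gene of the list was 2-fold lower, and on FPKM plus 0.1 there were 4. Adipoq, adiponectin, held 56 counts in Control, 330 and 3716 with Rh2 alone at 20 and 30 mg/kg, 650 with Dox alone, and 317 and 8 with Dox plus Rh2 at 20 and 30 mg/kg, a log2 ratio of -1.16 [-1.36, -0.96]. Pck1, which makes glycerol backbones in fat, held 272 in Dox and 60 with Rh2 (-2.30), and Car3 of fat cells held 3291 and 1766 (-1.02). These genes spanned a wide range over all 6 libraries.

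**Figure D5:**
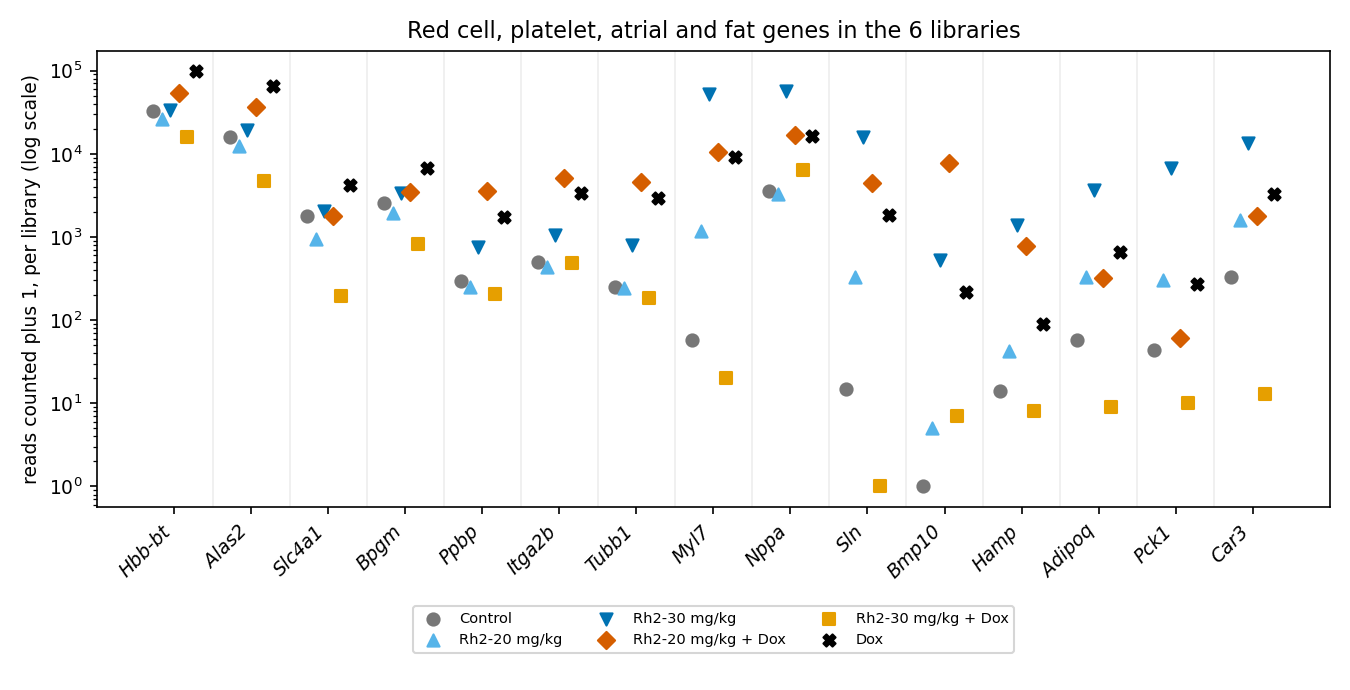
Reads counted plus 1 (vertical axis, log scale) for red cell, platelet, atrial and fat genes, with 1 point for each of the 6 libraries. Myl7 spans 19 to 52896 counts. Orange diamonds (Rh2-20 mg/kg + Dox) and black crosses (Dox) are close for Myl7 and Nppa and far apart for Bmp10 and Hamp, at 7644 against 217 and 783 against 88.

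Other large single ratios were in genes of varied or unchecked function. Mnd1, a gene of meiotic recombination (chromosome 3, 84087933 to 84155798), held 1815 counts in Control, 192 and 436 with Rh2 alone at 20 and 30 mg/kg, 1968 with Dox alone, and 270 and 160 with Dox plus Rh2 at 20 and 30 mg/kg, so that the 4 libraries with Rh2 lay below the 2 without and the log2 ratio was -2.99 [-3.18, -2.81]. Muc6, a gel-forming mucin, held 212 counts in Dox and 59 with Rh2 (-1.96). Moap1, a modulator of apoptosis, held 106 and 595 (2.36) and was listed at 0 in Control and with Dox plus the higher Rh2 dose. How reads were assigned to it where genes overlap was not checked. Vmn2r29, annotated as a vomeronasal receptor, held 77 and 478 (2.50). Sirpb1a, a receptor of myeloid cells, held 47 and 257 (2.31), and Cd207, langerin of dendritic cells, 55 and 223 (1.89). Hmga2, a chromatin protein, held 51 and 198 (1.82). F830016B08Rik, a gene with no function in its name and chosen after its values were seen, held 27402 counts in Dox, 1327 with Rh2 and 1959 to 2568 in the other 4 (-4.49). Dox stood far above the other libraries, as it did for Igtp and Iigp1. Whether this gene belongs with the interferon gamma genes was not checked.

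Some genes were listed at 3 counts or fewer in either library with at least 100 in the other. There were 7 such genes in Rh2-20 mg/kg + Dox, among them Slc10a3 with 332 counts in Dox and 0 with Rh2, and 3 in Dox. Slc10a3 was listed at 0 in 3 of the 6 libraries and at 265 to 398 in the rest. Zfp600, Zfp980 and Rex2 held 110 to 127 counts in Dox and 0 to 1 with Rh2 at 20 mg/kg, but 120 to 141 with Dox plus Rh2 at 30 mg/kg and 0 to 10 in the 3 libraries without Dox. Read assignment to these genes and to Slc10a3 was not checked either.

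The effect of the same Rh2 dose without Dox can be set beside these ratios, since Rh2-20 mg/kg and Control are other libraries. There 614 genes (3.35%) were at least 2-fold higher and 513 (2.80%) lower. Of the genes higher with Rh2 under Dox, 132 were also higher without it, 23.4% of the first list and 21.5% of the second. Of the lower genes 107 were shared, 17.0% and 20.9%. In opposite directions were 65 (higher with Dox and lower without), 11.5% and 12.7% of the 2 lists. Another 84 were lower with Dox and higher without, 13.3% and 13.7%. Sharing thus exceeded the shares over all genes, in the same and in opposite directions alike. Those shares are a low reference here, since with Dox the genes with few reads reached 2-fold more often. How much of the sharing came from such genes was not tested. Once genes averaging under 100 counts were left out, the log2 ratios with and without Dox had a Pearson correlation of 0.22. Their Spearman correlation was 0.33. Serpina3n (1.68 and 1.56), S100a9 (2.1 and 1.49), Ddit4 (1.10 and 1.01) and Mnd1 (-2.99 and -3.35) had like ratios in both comparisons, while Igtp (-2.58 and -0.09) and Adipoq (-1.16 and 2.44) did not.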

How the data were processed

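Hearts of 6 groups were sequenced as 1 captured RNA library each. Per the labels and the study's methods, reads were trimmed with Trimmomatic, aligned to mouse mm10 with HISAT2 2.1.0 and assigned to genes with StringTie 2.1.3b. The authors deposited whole-number read counts, FPKM and TPM per gene in 1 table, and TPM was not used here. Counts were scaled by TMM (edgeR 4.0.16), and log2 ratios used a prior count of 0.5 on genes with a mean count of at least 10. Intervals are exact binomial, and wider ones add the common dispersion over the 6 libraries taken as 1 group, since no group has replicates. No test was run. Steps were tested on simulated data. Members and gene lists were chosen with earlier results of these data known. Genes were named as the 12 largest rises and 12 largest falls with at least 200 counts in the higher and 20 in the lower library, unnamed models left out. Named too were the 2 largest rises and falls of each list with at least 100 counts, genes the study measured and markers. Other genes, given to show the range of a list, were chosen after their values were seen. Close gene copies (Tgtp, Irgm, Gbp, H2-Q, Hamp) may share reads. Alternatives were DESeq2 1.42.0 size factors, total counts, other filters, prior counts, folds and dispersions, and FPKM with a pseudocount of 1 or 0.1. The values of some named genes are not reported here.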

Additional observations from a re-analysis of the deposited data

Results flagged for a closer look

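For 3 named genes the ratio of Rh2-20 mg/kg + Dox over Dox and that of Rh2-20 mg/kg over Control were each at least 2-fold and opposite in direction. With 1 library per condition the difference was not tested.

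Pck1, of the white fat list, held 43 counts in Control, 307 with Rh2 alone at this dose, 272 in Dox and 60 with both, so that its log2 ratio was 2.71 without Dox and -2.30 with it. Adipoq held 56, 330, 650 and 317 counts in the same order, with log2 ratios of 2.44 and -1.16. Both held far more in Rh2-30 mg/kg, 6800 and 3716 counts, and 9 and 8 in Rh2-30 mg/kg + Dox.

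Vmn2r29 held 277 counts in Control, 136 with Rh2 alone, 77 in Dox and 478 with both, with log2 ratios of -1.14 and 2.50.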

How the results depend on the processing

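No paired analysis was possible because each group has 1 library, so that the groups share fewer than 2 replicate numbers. None of the 57 named genes called at 2-fold changed sign under DESeq2 factors, total counts, a prior count of 2 or FPKM. For the first 3 this was fixed in advance. Other factors shift all ratios by the same small amount, and a larger prior only shrinks them. Still 2-fold apart were 57, 55 and 56 under the first 3, but 44 on FPKM plus 0.1 and 26 on FPKM plus 1. Without a filter on low counts 2625 genes were higher and 2300 lower. With a mean of at least 100 counts these were 73 and 134, and 206 had an interval with the dispersion clear of 0. At 1.5-fold they were 1270 and 1357. At an assumed BCV (the coefficient of variation, here between pooled libraries) of 0.4 the interval was clear of 0 in 370 genes. On FPKM plus 1 there were 36 higher and 59 lower, and list medians were -1.03 for interferon gamma, -0.75 for MHC class II, -0.23 for type I interferon, 0.47 for neutrophil, -0.51 for red cell and -0.29 for white fat genes. A pseudocount of 1 shrinks ratios of low genes by construction. On FPKM plus 0.1 there were 223 higher and 229 lower, and the interferon gamma median was -1.21. Scaling by total counts alone gave it as -1.33. Counts under about 100 reads limit the neutrophil and lymphocyte results, and the spread between mice was not measured.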
